A study of Penaeus monodon with 38 samples.

Results

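The wild ovary arrays taken soon after eyestalk ablation were compared with those taken before it, 4 arrays against 2, chosen by the stage and tissue codes in the sample titles. These 6 arrays are among the 38 of the series. The animals were wild-caught adult female black tiger shrimp (Penaeus monodon), held in tanks for 7 days before sampling. The preablation group came from un-ablated inter-moult females with immature ovaries. The other groups came from inter-moult females that had lost 1 eyestalk, sampled 2 h or 24 h later, and their ovaries are labelled previtellogenic. RNA was isolated from pieces of ovarian lobe of each animal and pooled, and each stage gave 2 pools, of 4 and of 5 animals, each hybridised with Cy5 to 1 array. Which replicate holds the smaller pool is not given in the sources used here. Replicates are therefore pools, and every p-value below rests on the spread between arrays of different pools, not between animals. With 1 array a pool, differences between pools and between arrays cannot be told apart in that spread. The 6 later wild ovary arrays, of the vitellogenic, round cortical rod and elongated cortical rod stages, were also taken from ablated females and enter the fit and the plots as context.

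The eyestalk of a decapod houses the X-organ and sinus gland, a neurosecretory complex that releases peptides of the crustacean hyperglycemic hormone family. Members of that family restrain vitellogenin synthesis and moulting, and hatcheries remove an eyestalk to bring on ovarian growth. A penaeid oocyte first grows slowly, then fills with yolk derived from vitellogenin, which is made in the ovary and the hepatopancreas, and late in its growth forms cortical rods under its membrane. The rods hold peritrophin and thrombospondin proteins that are released around the egg at spawning, and their transcripts are already made in immature ovaries. The comparison asks which of these transcripts differ within the first day after ablation, while the oocytes are still labelled previtellogenic.

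Each array measured 2240 probes for 921 targets, and all levels below are background-corrected, quantile-normalized intensities on the log2 scale. Limma called 0 of 2240 probes (0%) at an adjusted p under 0.05 after ablation against before it. At an unadjusted p under 0.05 there were 15 probes (0.67%), 10 higher and 5 lower after ablation. The methods' t-test on the same values also called 0 after Benjamini-Hochberg adjustment, with 29 probes at an unadjusted p under 0.05. The median absolute difference over all probes was 0.13, beside a median standard error of 0.24. Between the 2 replicates of a stage the median absolute difference was 0.24 before ablation, 0.43 at 2 h and 0.30 at 24 h. Differences over 1 between replicates were seen at 132 probes before ablation, 489 at 2 h and 233 at 24 h, and the ablation difference itself was over 1 at 21 probes. The last is a difference between means of 4 and 2 arrays, so its count cannot be set against the counts for single arrays.

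The arrays carried the cortical rod markers of ovary. All 12 probes of the cortical rod genes were above the non-specific level on all 6 arrays, where that level is the 90th percentile of the 24 probes made from vertebrate sequences. Vitellogenin was also set as an ovary marker, and of its 5 probes 0 were above that level on all 6 arrays and 1 on none. Of 88 probes for eyestalk neuropeptides, 58 were above it on none of the 6 arrays and 6 on all of them. The 3 probes of haemocyte transglutaminase, an enzyme of blood clotting, had a mean level of 6.91, with 2 above the non-specific level on none of the arrays and the other on 5 of 6. In bulk ovary RNA, fewer cells of a type and less RNA per cell cannot be told apart.

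Some arrays stood apart before any comparison. The 2 replicates at 2 h had the lowest correlation with each other, 0.907 over the 2240 probes, against 0.955 at 24 h and 0.972 before ablation. The median correlation with the other 11 wild ovary arrays was 0.925 for replicate 1 at 2 h and 0.974 for replicate 2. The share of probes above the non-specific level was 34.6% on replicate 1 at 2 h and 34.2% on replicate 1 at 24 h, and 42% to 48.8% on the other 4. Replicate 2 at 2 h had 48 spots at the scanner's ceiling, and the other 5 arrays had 0 to 2. In preablation replicate 1, the 56 spots of row 12 of the array had a median deviation of -0.69 from each probe's median over the 12 wild ovary arrays. In any other row of the 6 arrays, each of 40 rows by 56 columns, the median deviation was between -0.13 and 0.22. A probe in row 12 thus has a low preablation value on 1 of 2 arrays, and 49 of the 56 probes there were higher after ablation, with a median of 0.33. Of the 10 probes that were higher at an unadjusted p under 0.05, 8 lie in that row, so the probes of that row named below are given also with those spots left out.

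**Figure D1:**
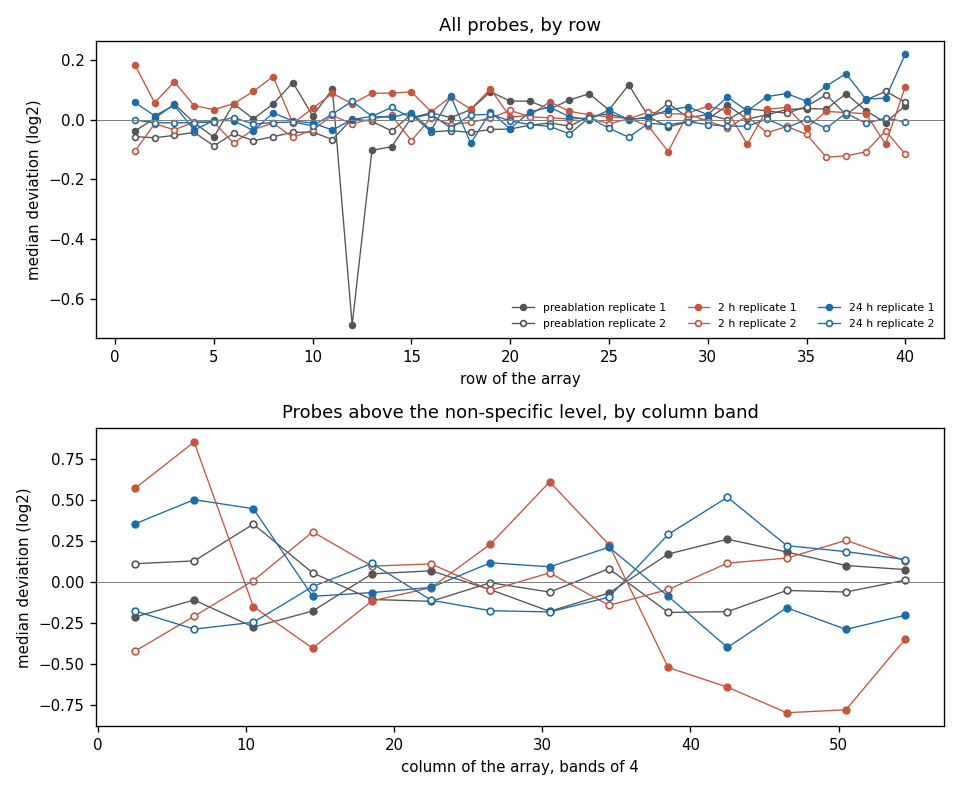
Median deviation, in log2 units, of each of the 6 arrays, by array row over all probes (upper panel, from the probe medians of the 12 wild ovary arrays) and by band of 4 columns over the probes above the non-specific level (lower panel, from the median of the other 5 arrays). Row 12 of preablation replicate 1 sits at -0.69, and replicate 1 at 2 h runs from 0.86 in the second band of columns to -0.80 in the twelfth.

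Values also varied with the column of the array. Among probes above the non-specific level, replicate 1 at 2 h had a median deviation of 0.86 from the other 5 arrays in the band of columns that starts at column 5 and of -0.80 in the band that starts at column 45. Replicate 1 at 24 h, on the same slide, ran from 0.50 in the band that starts at column 5 to -0.40 in the band that starts at column 41. Preablation replicate 1 is also on that slide, and its bands stayed between -0.27 and 0.26. Deviation also went with the base composition of the probe. In replicate 1 at 2 h, the probes with the lowest GC content had a median deviation of -0.77 and those with the highest had 0.58. Whether position and base composition account for the spread between replicates was not tested. Centring both in each array subtracted medians taken from these same values, so a smaller difference between arrays is partly built in. Over the 962 probes above the level, the median difference between replicates went from 0.91 to 0.67 at 2 h. It went from 0.57 to 0.49 at 24 h and from 0.395 to 0.390 before ablation. Limma still called 0 of these 962 probes, with 5 at an unadjusted p under 0.05.

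Vitellogenin, the yolk precursor, had the largest median difference of the 68 named targets. Its 5 probes are named by their base positions in the target sequence and are printed as in the array files, because the start of yolk formation is read from them.
vitellogenin 6949-6983: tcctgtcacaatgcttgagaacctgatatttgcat
vitellogenin 7005-7039: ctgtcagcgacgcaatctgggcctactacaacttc
vitellogenin 7245-7279: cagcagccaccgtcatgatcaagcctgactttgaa
vitellogenin 7311-7345: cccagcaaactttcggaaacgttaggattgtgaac
vitellogenin 7519-7553: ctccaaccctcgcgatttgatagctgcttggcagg

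Probe 7245-7279 measured 7.78 and 8.70 before ablation, 10.35 and 9.76 at 2 h, and 7.26 and 11.02 at 24 h, replicate 1 first. Probe 7005-7039 measured 7.34 and 8.71, then 10.26 and 9.50, then 7.11 and 10.77. In both probes the 2 h arrays and replicate 2 at 24 h were above the preablation arrays, and replicate 1 at 24 h was below them. Probe 7519-7553 measured 7.48 and 8.95 before ablation, 8.78 and 9.85 at 2 h, and 7.62 and 10.40 at 24 h. Probe 6949-6983 measured 6.97 and 7.83, then 6.98 and 8.83, then 6.87 and 9.38. In these 2 probes replicate 2 was the higher of each pair, and the post-ablation values overlapped the preablation ones. Against the preablation array of the same replicate number, probe 7519-7553 was higher at both times in both replicates, and its difference of 0.95 had a standard error of 0.49 with replicate as a block, against 0.73 without. The adjusted p of that probe with the block was 0.997 by limma. Each of the other 3 probes above was higher in 3 of 4 such comparisons. Probe 7311-7345 was above the non-specific level on none of the 6 arrays.

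The vitellogenin differences after ablation ran from 0.19 to 1.39 with a median of 0.95, and all 5 were above 0. For probe 7245-7279 the difference was 1.36 ± 0.87 (SE), with an adjusted p of 0.999 by limma. It was 1.81 at 2 h and 0.90 at 24 h. The mean of the 5 probes was 7.28 and 8.20 before ablation, 8.71 and 9.0 at 2 h, and 7.14 and 9.72 at 24 h. An exact permutation test of 4 arrays against 2 cannot give a two-sided p below 0.0667, so no such test was made. At the later stages the mean was 9.73 and 10.82 (vitellogenic), 10.69 and 11.08 (round cortical rods), and 10.33 and 10.54 (elongated cortical rods). Replicate 1 at 24 h thus lay below both preablation arrays, and replicate 2 lay beside the lower vitellogenic array. The 3 probes labelled vitellogenin receptor (yl), whose product takes yolk protein into the oocyte, were above the non-specific level on none of the 6 arrays. Their differences were 0.00 to 0.18. The source species of these probes is not given here, so their low signal need not be that of the shrimp gene.

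**Figure D2:**
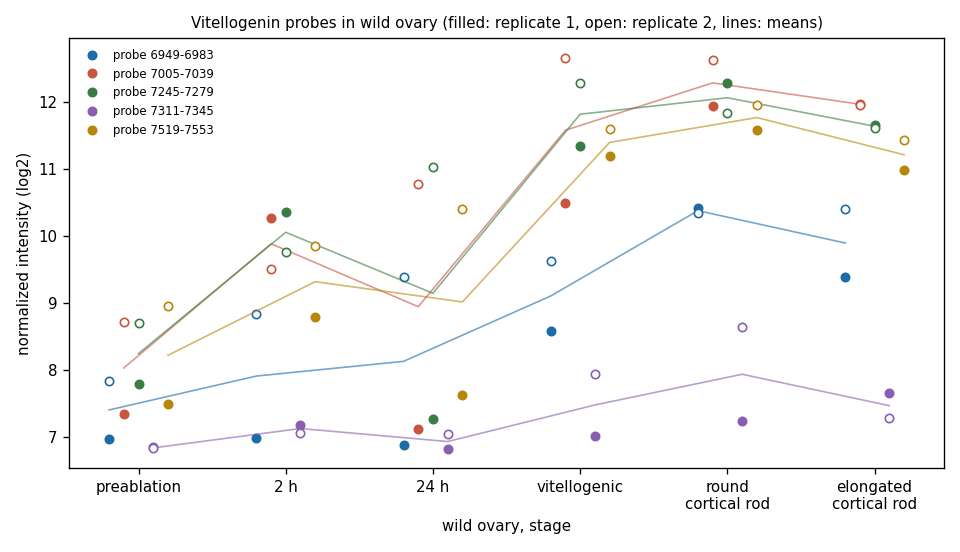
Log2 normalized intensity of the 5 vitellogenin probes on the 12 wild ovary arrays by stage, with filled points for replicate 1, open points for replicate 2 and lines through the stage means. At 24 h the replicates lie far apart, at 7.26 and 11.02 for probe 7245-7279.

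The cortical rod genes had differences near 0. The mean of the 12 probes was 13.72 to 13.74 on the preablation arrays and 13.57 to 14.02 on the 4 post-ablation arrays. Of the 12 differences, 8 were above 0 and 4 below it, with a median of 0.03 beside 0.00 over all 2240 probes, and 0 passed the test (0%). At 2 h 10 of 12 were above 0, with a median of 0.10 beside 0.02 over all probes. At 24 h 9 of 12 were below 0, with a median of -0.09 beside 0.00. The 2 h replicates disagreed: the list mean was 13.63 in replicate 1, below both preablation arrays, and 14.02 in replicate 2, above them. At 24 h it was 13.57 and 13.69. For 24 h against 2 h, 9 of 12 were below 0 with a median of -0.21, and 0 passed the test. Ovarian peritrophin 1, a chitin-binding jelly-layer protein, reached 15.41 and 15.35 before ablation at probe 664-697. That probe lies in row 12. It measured 15.14 and 15.66 at 2 h and 15.31 and 15.62 at 24 h. These values lie on both sides of the preablation pair, and the difference was 0.05 ± 0.25 (SE), or 0.08 with row 12 of preablation replicate 1 left out. Probe 8-41 of the same gene measured 12.96 and 13.57, then 13.47 and 13.73, then 12.81 and 13.20. The difference of 24 h from 2 h was -0.60 ± 0.26 (SE), with an unadjusted p of 0.0493 and an adjusted p of 0.998 by limma.

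Ovarian peritrophin 2 varied most at probe 46-79, which measured 12.54 and 11.53 before ablation, 11.95 and 13.01 at 2 h, and 10.79 and 13.30 at 24 h. The 24 h replicates of that probe lay on either side of both preablation arrays. Thrombospondin, an extracellular matrix protein of the rods, had its lowest difference at probe 1178-1211, which measured 13.32 and 13.33, then 12.32 and 13.23, then 12.66 and 13.59. The difference was -0.37 ± 0.38 (SE), or -0.19 with column bands and GC classes centred, and that probe shares at least 20 bases with 4 probes of ovarian library clones. Probe 1758-1792 measured 14.35 and 13.94, then 14.43 and 13.98, then 14.41 and 13.35. The 5 probes named as thrombospondin had differences of -0.37 to 0.08, 3 of them below 0. Directions this close to 0 turned with the scaling: with each array scaled to a common median in place of quantile normalization, 8 of the 12 went from above 0 to below it, for example to -0.30 at ovarian peritrophin 1 8-41 and to -0.31 at thrombospondin 1018-1051.

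**Figure D3:**
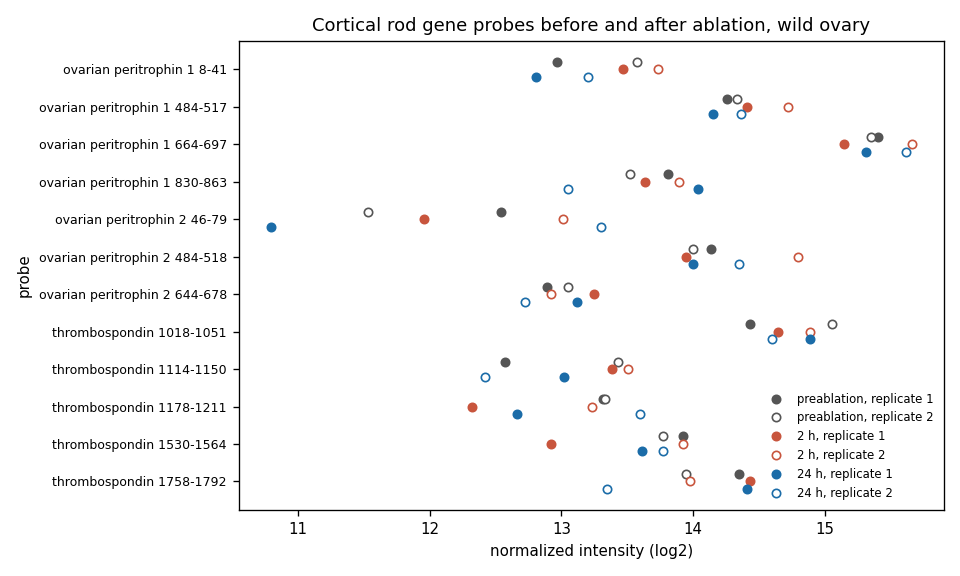
Log2 normalized intensity of the 12 probes of the cortical rod genes on the 6 arrays, by stage (colour) and replicate (filled for 1, open for 2). The preablation points lie among the 2 h and 24 h points in nearly every probe.

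The eyestalk hormones are made in the organ that ablation removes, and most of their probes were not above the non-specific level in ovary. Of the 88 probes, 56 had differences above 0 and 32 below it, with a median of 0.06, and 0 passed the test. Probe 341-375 of pigment dispersing hormone 1, a peptide of the eyestalk pigment and clock system, measured 8.69 and 8.52 before ablation. It measured 9.91 and 8.31 at 2 h and 9.88 and 8.44 at 24 h. Replicate 1 was high at both times and replicate 2 was below both preablation arrays, and the difference was 0.53 ± 0.55 (SE), or 0.31 with column bands and GC classes centred. Probe 883-917 of mandibular organ inhibiting hormone, a peptide that restrains methyl farnesoate synthesis in crabs, was also high in replicate 1 alone, with 8.03 and 8.40, then 9.29 and 8.03, then 9.05 and 8.28. The 5 probes of gonad-inhibiting hormone, which restrains vitellogenesis, had differences of -0.08 to 0.23, and 4 of the 5 were above the non-specific level on none of the arrays. Probe 80-114 of the peptide PmSGP-III measured 7.15 and 7.30, then 7.68 and 7.83, then 7.59 and 7.90. All 4 post-ablation arrays were above both preablation arrays there, but only 2 of the 6 values were above the non-specific level, and the difference was 0.52 ± 0.33 (SE). With column bands and GC classes centred it was 0.38, and replicate 1 at 2 h, at 7.45, lay just under the higher preablation array at 7.46. The hyperglycemic hormone peptides PmSGP-V (9-43) and CHH2 (207-241) differed by 0.32 and 0.26, and other probes of the same family by less in the other direction, such as -0.14 for mandibular organ inhibiting hormone (609-643) and -0.11 for CHH2 (241-275). CHH2 241-275 measured 7.02 and 7.05 before ablation and 6.85 to 7.00 after it, also without overlap.

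Groups that do not overlap were also counted over all probes. Over the 2240, the 4 post-ablation arrays lay above both preablation arrays at 87 probes (3.88%) and below both at 42 (1.88%), 129 in all (5.76%). Probe 1942-1975 of broad complex isoform Z1, a transcription factor of the ecdysone response in insects, was among the 87. It measured 6.21 and 6.68 before ablation, 6.78 and 7.21 at 2 h, and 7.41 and 6.72 at 24 h, all below the non-specific level. Its difference was 0.59 ± 0.28 (SE), with an adjusted p of 0.999 by limma. A second probe of that gene, 1771-1805, lies in row 12: it differed by 0.78 with all spots and by 0.11 with row 12 of preablation replicate 1 left out. The third probe, 1307-1341, differed by 0.02. The 15 probes for hormone synthesis and nuclear receptors had a median difference of 0.11, and 12 of them were above the non-specific level on none of the arrays.

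Among neural and serotonin genes, probe 1915-1949 of the 5-HT1 receptor, a serotonin receptor, measured 7.53 and 7.39, then 8.24 and 7.67, then 7.89 and 7.67. The groups did not overlap, and the difference was 0.41 ± 0.23 (SE). With column bands and GC classes centred the difference turned to -0.0030 and the groups overlapped, at 7.82 and 7.54, then 7.05 and 8.20, then 7.45 and 8.01. The 22 probes of that list had a median difference of 0.11 and 0 passed the test. Probe 223-257 of a phenylalanine/tryptophan hydroxylase, an enzyme of serotonin synthesis, measured 7.55 and 7.64, then 8.60 and 7.65, then 7.98 and 7.70. Replicate 1 at 2 h was the highest of the 6, the groups did not overlap, and the difference was 0.39 ± 0.26 (SE). With the same centring it was 0.14, and the groups overlapped.

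Proteases gave the only named probe with an unadjusted p under 0.05 after ablation. Probe 57-91 of a cathepsin L precursor, a cysteine protease, measured 6.32 and 7.06 before ablation, 7.27 and 7.27 at 2 h, and 6.98 and 7.45 at 24 h, all below the non-specific level. Its difference was 0.56 ± 0.22 (SE), with an unadjusted p of 0.0342 and an adjusted p of 0.999 by limma. The probe lies in row 12, and with row 12 of preablation replicate 1 left out the difference was 0.18 ± 0.21 (SE). Probe 525-559 of cathepsin L (CTSL), in the same row, differed by 0.34 with all spots and by 0.15 without those spots. Probe 108-141 of cathepsin L2 measured 7.74 and 7.54, then 8.19 and 7.26, then 7.56 and 11.84. A single array, replicate 2 at 24 h, set its difference of 1.07 ± 1.33 (SE). The 22 protease probes had a median difference of 0.07, and 20 of them were above the non-specific level on none of the arrays.

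In the muscle and phosphagen list 6 of 13 probes exceeded the non-specific level on all 6 arrays, in the ribosomal list 7 of 8, and for protein disulfide isomerase 3 of 3. Arginine kinase, which buffers ATP in invertebrate cells, was on the array as 2 clones. Probe 5-39 of clone 41 measured 12.24 and 11.80, then 12.49 and 12.42, then 12.24 and 12.95. It differed by 0.50 ± 0.24 (SE), with an adjusted p of 0.999 by limma, and by 0.14 with each array scaled to a common median. The other 2 probes of clone 41, 361-395 and 305-339, differed by -0.16 and -0.40, or by -0.37 and -0.16 with column bands and GC classes centred, so the probes of that clone disagreed. The 3 probes of clone 44 differed by 0.45 to 0.67, and with that centring by 0.34 (73-106), 0.12 (169-203) and 0.28 (9-43). The lowest of the 6 values in each of these 3 probes was that of preablation replicate 1, for example 11.05 at probe 9-43 against 12.06 to 12.77 on the other arrays.

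Probe 297-331 of a subunit of NADH:ubiquinone oxidoreductase, the first complex of the respiratory chain, measured 9.44 and 10.03, then 11.87 and 9.82, then 10.84 and 10.11. Replicate 1 was high at both post-ablation times, replicate 2 was near the preablation arrays, and the difference was 0.92 ± 0.53 (SE), or 0.47 with column bands and GC classes centred. Probe 217-250 of a 40S ribosomal protein measured 11.08 and 10.25, then 13.88 and 10.95, then 9.59 and 11.29. Probe 89-123 of the same protein measured 11.17 and 11.09, then 8.77 and 11.19, then 10.78 and 11.16. On replicate 1 at 2 h the first probe of this protein was the highest of the 6 values and the second the lowest, at 13.88 and 8.77. Probe 57-91 of ribosomal protein L18 was likewise low on that array, at 9.85 against 11.01 to 11.87 on the other 5. The ribosomal list as a whole had 4 of 8 probes above 0 and a median of 0.00.

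Protein disulfide isomerase, which folds secreted proteins in the endoplasmic reticulum, had the lowest unadjusted p of the named probes for 24 h against 2 h. Probe 225-259 measured 8.36 and 9.08 before ablation, 8.98 and 9.15 at 2 h, and 8.41 and 8.21 at 24 h. Both 24 h values were below both 2 h values, with a difference of -0.76 ± 0.28 (SE), with an unadjusted p of 0.0258 and an adjusted p of 0.998 by limma. Its probe 153-187 measured 12.71 and 12.50, then 12.37 and 12.07, then 12.21 and 12.60, and did not share that order. Of the 3 probes of that gene, 2 were lower at 24 h than at 2 h, with a median difference of -0.43 over the 3. Probe 1114-1150 of thrombospondin and probe 8-41 of peritrophin 1 had 24 h minus 2 h differences of -0.73 and -0.60. Clathrin heavy chain 2, the coat protein of the vesicles that carry yolk into oocytes, had a difference of 0.92 at probe 332-366, which lies in row 12, and of 0.22 with row 12 of preablation replicate 1 left out. Its probe 9-43 differed by -0.24 and was below the non-specific level on all 6 arrays.

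Markers of muscle and eye were also measured. The muscle list, with arginine kinase in it, had a mean level of 8.92 to 9.17 before ablation and 9.01 to 9.35 after it, with 9 of 13 differences above 0, 4 below it and a median of 0.12. Probe 233-267 of muscle LIM protein 84B, a sarcomere protein, measured 6.63 and 6.80, then 7.27 and 6.96, then 6.91 and 6.98, none above the non-specific level, a difference of 0.31. Of the other 2 probes of that gene, 49-83 differed by 0.22 and 73-106 by -0.11, and the 2 probes of myosin alkali light chain differed by 0.11 and -0.07. The 9 arrestin probes, from the photoreceptor shut-off protein of the eye, had mean levels of 6.69 and 6.78 before ablation and 6.77 to 6.96 after it. Whether other tissue plays a part in any difference was not tested.

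**Figure D4:**
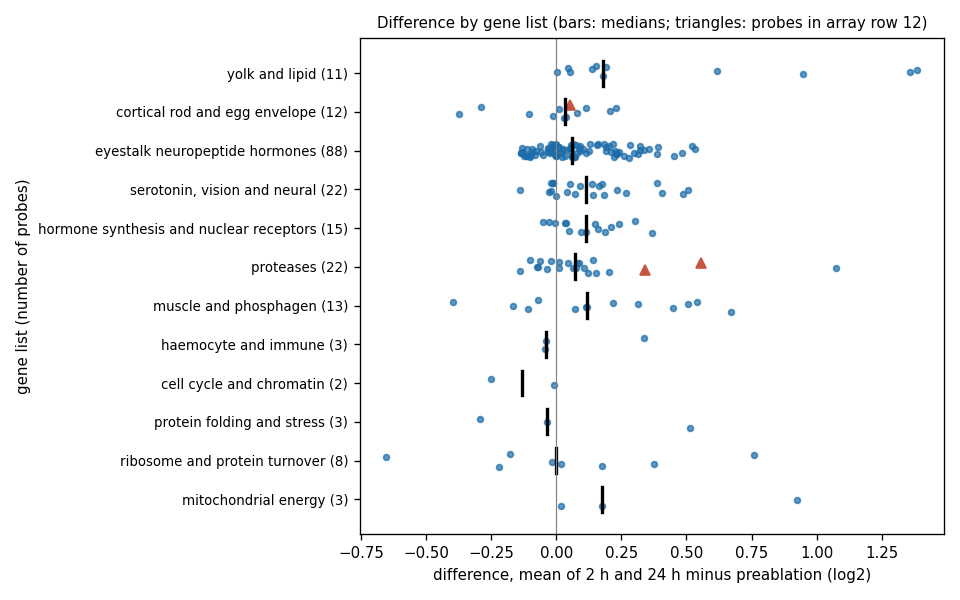
Difference between the mean of 2 h and 24 h and the preablation mean, in log2 units, for each probe of the 12 gene lists, with a bar at each list's median and triangles for probes in row 12 of the array. All list medians lie between -0.13 and 0.18, and the 4 points to the right in the yolk list are vitellogenin probes.

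Taking the named probes together, 147 of 220 had differences above 0, with a median of 0.06, beside 1129 of 2240 and 0.00 over all probes. The 24 vertebrate-derived probes had 15 of 24 above 0 and a median of 0.03. Of the 345 probes from the ovarian library, 140 had differences above 0, with a median of -0.04, and the 351 from the hepatopancreas library had a median of 0.03. Of the ovarian library probes, 233 exceeded the non-specific level on all 6 arrays, against 72 of the hepatopancreas library. The part of level in the shift between libraries was not tested.

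The times taken apart also gave no called probe. At 2 h against preablation limma called 0 probes, and 43 (1.92%) had an unadjusted p under 0.05, 15 higher and 28 lower (1.25%). At 24 h against preablation it called 0, with 4 (0.179%) at an unadjusted p under 0.05, all higher. At 24 h against 2 h it called 0, with 26 (1.16%) at an unadjusted p under 0.05, 22 higher (0.982%) and 4 lower. The 2 h and 24 h comparisons share the preablation arrays, and both share the 2 h or 24 h arrays with the comparison of these times. The difference at 2 h in replicate 1 and the difference at 2 h in replicate 2 share no array. Across the 2240 probes they had a Pearson correlation of -0.26, and 40.6% of the probes had the same sign. At 24 h the correlation was -0.36 with 35.7% of the same sign. These correlations are descriptions across probes, which share the array and its signal.

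Probes without a gene name came next. Their sequences are printed because the files give no gene name for them, which leaves the sequence as their identity. Contig[0228] and the clones D-E10, D-B11 and OV-N-S01-1117-W had the lowest unadjusted p among probes that were lower after ablation in both slides. D-F10 was chosen after its values were seen.
D-E10 129-163: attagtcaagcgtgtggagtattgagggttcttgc
D-B11 97-131: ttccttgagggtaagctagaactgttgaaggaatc
Contig[0228] 183-217: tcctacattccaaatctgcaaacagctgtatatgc
OV-N-S01-1117-W 306-340: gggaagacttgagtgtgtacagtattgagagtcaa
D-F10 57-91: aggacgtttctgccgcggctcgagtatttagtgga

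D-E10 129-163 had the lowest unadjusted p at 2 h, 0.00207, with an adjusted p of 0.998 by limma. It measured 10.57 and 10.54 before ablation, 8.72 and 9.64 at 2 h, and 10.80 and 10.17 at 24 h. Both 2 h arrays were below the other 4 early arrays, with a difference of -1.38 ± 0.31 (SE) from preablation, and the 24 h arrays lay around the preablation level. The vitellogenic arrays were again low, at 9.44 and 9.33. The other probe of D-E10, 175-208, measured 11.96 and 11.40, then 11.96 and 10.42, then 12.15 and 11.04, so it was low in replicate 2 and not in replicate 1. With column bands and GC classes centred, the difference of D-E10 129-163 with 2 h and 24 h pooled was -0.46, against -0.73 without. The centred difference at 2 h alone is not given here.

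D-B11 97-131 measured 9.24 and 8.30 before ablation, 7.24 and 7.88 at 2 h, and 8.28 and 7.57 at 24 h. All 4 post-ablation values were below both preablation values, and the difference was -1.03 ± 0.40 (SE). With column bands and GC classes centred it was -0.93, and replicate 1 at 24 h, at 8.27, lay above preablation replicate 2 at 8.20. The other probes of that clone did not share the order: D-B11 259-292 measured 7.84 and 7.74, then 9.50 and 7.41, then 8.85 and 7.41. Contig[0228] 183-217 measured 9.80 and 9.37, then 7.47 and 9.22, then 8.35 and 8.96. Its groups also did not overlap, and its difference was -1.09 ± 0.44 (SE) and -0.99 with column bands and GC classes centred. Its other probe, 83-117, measured 10.58 and 10.65, then 9.27 and 10.63, then 10.59 and 10.09.

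D-F10 57-91 had an unadjusted p of 0.0077 at 24 h against preablation, with an adjusted p of 0.999 by limma. It measured 10.94 and 11.47 before ablation, 11.40 and 11.46 at 2 h, and 11.87 and 12.24 at 24 h. Both 24 h values were above the other 4, by 0.85 ± 0.24 (SE) against preablation. The other probes of D-F10 did not follow: D-F10 177-211 measured 10.33 and 10.70, then 8.15 and 11.15, then 10.03 and 10.59. D-F10 457-491 measured 10.40 and 10.41, then 9.46 and 10.75, then 9.93 and 10.80.

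OV-N-S01-1117-W 306-340 had the lowest difference of all, -2.55 ± 1.07 (SE), and rests on 1 spot. It measured 12.44 on preablation replicate 1, 7.52 on replicate 2, and 7.17 to 7.79 on the 4 post-ablation arrays. It was 7.09 to 7.42 on the 6 later arrays, and the other 2 probes of that clone measured 6.39 to 6.83 before ablation. Without preablation replicate 2 this probe passed the test at -4.98, and so did plateB-C11 71-105 at -2.55, which measured 9.84 on preablation replicate 1 and 7.16 to 7.47 on the other 5 arrays. Among higher probes, the 4 unnamed ones with the lowest unadjusted p that were higher within slides 1 and 2 all lie in row 12. E-G1 9-43 differed by 0.65 with all spots and by 0.26 without row 12 of preablation replicate 1. The differences were 0.58 and 0.28 for plateB-B4 341-375, 0.51 and 0.29 for F-C6 9-43, and 0.53 and 0.23 for mjtsp1616-3545 1330-1364. The label mjtsp may stand for a thrombospondin. It has no gene name here, and the probe is not counted among the cortical rod genes.

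**Figure D5:**
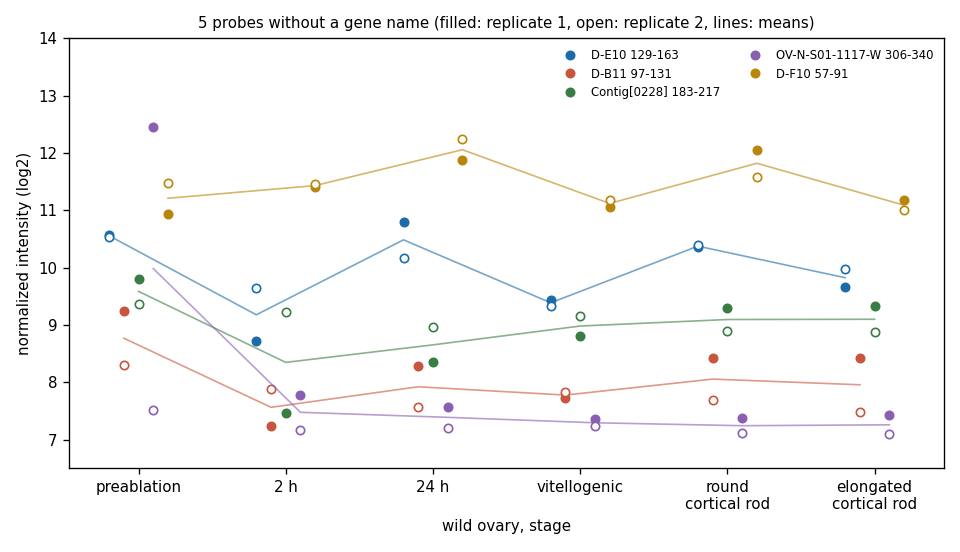
Log2 normalized intensity of 5 probes without a gene name on the 12 wild ovary arrays by stage, with filled points for replicate 1, open points for replicate 2 and lines through the stage means. D-E10 is low at 2 h in both replicates, and the high preablation mean of OV-N-S01-1117-W comes from 1 array at 12.44.

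Targets with 3 or more probes were also ranked by their median difference. The lowest unnamed ones were 2 ovarian library clones, OV-N-S01-0061-W at -1.01 and OV-N-S01-0194-W at -0.97, and the clone plateA-A11 at -0.94. All 3 probes of each were below 0, and the smallest unadjusted p among these 9 probes was 0.0739. The highest were the hepatopancreas library clone HPA-N-S01-0775-LF at 0.78, Plate-A-A2 at 0.62 and D-A12 at 0.51, with 8 of their 9 probes above 0.

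The response of ovary was set against that of the eyestalk of wild females at the same stages, in a fit over 24 arrays that tests the difference between them. Limma called 0 of 2240 probes, with 9 (0.402%) at an unadjusted p under 0.05. Among named probes, pigment dispersing hormone 1 (341-375) had an ovary minus eyestalk difference of 1.31 ± 0.71 (SE), and hyperglycemic hormone CHH2 (112-145) had -1.34 ± 0.75 (SE), each with an adjusted p of 0.999 by limma. With the 12 arrays of the early stages only, 1 probe was called, plateB-C2 301-335, at 3.85. On the 6 ovary arrays that probe measured 7.30 to 7.66.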

How the data were processed

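Per the file headers, the deposited scanner output holds linear foreground intensity, as mean and median, for 1 spot a probe, with neither background values nor control spots. The submitters' value table held the same mean intensity within 0.01. The foreground mean was corrected by normexp (offset 50), put on the log2 scale and quantile-normalized over the arrays of the fit (limma 3.58.1, R 4.3.3). Median spot intensity was 158 to 344 over the 6 arrays.

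The 12 wild ovary arrays were fitted with lmFit and eBayes as 6 stage means, which leaves 6 residual degrees of freedom, and p-values were adjusted by Benjamini-Hochberg over all 2240 probes. The scripts were tested on simulated data. Named probes have the lowest unadjusted p in each comparison and direction, in the pooled one only with the same sign within slides 1 and 2, and targets rank by the median of their probes. All probes named as vitellogenin, ovarian peritrophin or thrombospondin were added, and the other named probes and targets were chosen after their values were seen. Members and lists were chosen with earlier results of these data known. Probe positions are base positions in the target sequence. Gene names come from the array files and can be old. Besides the vertebrate-derived probes, some named probes are not labelled Penaeus monodon, among them those of the cathepsin L precursor and broad complex isoform Z1. A low signal at such probes need not be that of the shrimp gene. The number of arrays limits precision.

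Alternatives were median scaling, no background correction, the foreground median, a filter at the non-specific level, the early arrays alone, replicate or slide as a block, targets averaged, each array left out, the methods' t-test and a single post-ablation mean. Leaving out row 12 of preablation replicate 1 and 3 ways of centring array position were added after the data were seen.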

Additional observations from a re-analysis of the deposited data

Results flagged for a closer look

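In a group of 4 arrays a value can stand far from the other 3. Of the 64 probes and 14 list means examined over the 4 post-ablation arrays, 2 did so, and chance gives about 1 in 20. Probe 89-123 of the 40S ribosomal protein measured 8.77 on replicate 1 at 2 h, against 10.78 to 11.19 on the other 3. The mean of the mitochondrial energy list was 8.71 on the same array, against 8.26 to 8.31.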

How the results depend on the processing

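No comparison gained a called probe under the settings that keep all the compared arrays, with 1 exception: with the arrays of the 3 early stages only, the ovary minus eyestalk comparison had 1. Probes at an unadjusted p under 0.05 ranged over these settings from 3 to 29 after ablation, from 3 to 58 at 2 h, from 0 to 10 at 24 h, from 4 to 42 at 24 h against 2 h and from 4 to 23 for ovary minus eyestalk. The replicate block called 0 probes in all 5 comparisons, with 29, 55, 9, 38 and 15 at an unadjusted p under 0.05. Same-numbered pools share a number and mostly a slide. Across probes, the replicate 1 minus replicate 2 difference at 2 h correlated with that at 24 h at 0.60. The preablation difference correlated with these at 0.13 (2 h) and 0.11 (24 h). Leaving out row 12 of preablation replicate 1, chosen after seeing the data, lowered the unadjusted count from 15 to 7.

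Leaving out 1 array gave 0 to 2 calls after ablation, 0 to 45 at 2 h, 0 to 3 at 24 h, 0 to 14 at 24 h against 2 h and 0 to 2 for ovary minus eyestalk. The 45 and the 14 came without replicate 2 at 2 h, which leaves replicate 1 alone, and without it the lone array is assumed to vary like the other stages. The 2 after ablation, 2 at 2 h and 2 at 24 h came without preablation replicate 2. The 3 at 24 h and 2 at 24 h against 2 h came without replicate 1 at 24 h. For ovary minus eyestalk, 1 came without ovary preablation replicate 2, 2 without eyestalk preablation replicate 1 and 1 without eyestalk replicate 2 at 2 h.

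Of 1453 values of 79 probe results, 1398 kept their direction and 55 turned, and the cause was not tested. With a common median, ovarian peritrophin 1 was -0.30 (8-41), -0.28 (664-697) and -0.19 (484-517), peritrophin 2 was -0.17 (46-79), -0.18 (484-518) and -0.31 (644-678), and thrombospondin was -0.31 (1114-1150) and -0.31 (1018-1051). With the foreground median, peritrophin 1 664-697 was -0.12, peritrophin 2 644-678 -0.029, thrombospondin 1018-1051 -0.069 and gonad-inhibiting hormone 1998-2032 (ovary minus eyestalk) -0.023. With slide as a fixed block, peritrophin 1 830-863 was 0.025 and thrombospondin 1018-1051 -0.041, while a random slide term put the latter at -0.00046. The other turned values are from settings added after seeing the data. With row and column medians subtracted, cathepsin L (CTSL) 525-559 was -0.14 after ablation and -0.13 at 24 h, F-C6 9-43 -0.030, and peritrophin 1 -0.0026 (8-41), -0.31 (664-697) and 0.011 (830-863). With column bands centred, peritrophin 1 was -0.015 (8-41) and 0.039 (830-863) and thrombospondin 1018-1051 -0.055. With GC classes centred too, the 5-HT1 receptor 1915-1949 was -0.0030, peritrophin 2 484-518 -0.00039 and thrombospondin 1018-1051 -0.25.

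Left-out arrays turned 28 of 522 values. The ranges were -0.27 to 0.34 (8-41), -0.083 to 0.16 (664-697) and -0.26 to 0.23 (830-863) for peritrophin 1. They were -0.40 to 0.85 (46-79), -0.0088 to 0.41 (484-518) and -0.071 to 0.13 (644-678) for peritrophin 2. For thrombospondin they were -0.30 to 0.33 (1018-1051), -0.35 to 0.51 (1114-1150) and -0.37 to 0.16 (1758-1792). Vitellogenin 6949-6983 ranged from -0.013 without replicate 2 at 24 h to 1.27 without replicate 1. The 40S protein 89-123 ranged from -2.31 to 0.061 at 2 h and from -0.22 to 2.15 at 24 h against 2 h. For ovary minus eyestalk, gonad-inhibiting hormone 1998-2032 ranged from -0.19 to 1.76 and phospholipase C 8-42 from -0.15 to 1.25. Signal limits the rest: 966 of 2240 probes did not exceed the level of the vertebrate-derived probes on any of the 6 arrays.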
